A study of Sus scrofa with 12 samples.

Results

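The genes of the proteasome and of the enzymes that attach and remove ubiquitin were followed in porcine aortic valvular interstitial cells (VICs). They were chosen by symbol. Members were the probe sets annotated with 1 gene symbol that names a proteasome subunit, activator, inhibitor or assembly chaperone (PSMA to PSMG), a ubiquitin-type activating enzyme (UBA), a conjugating enzyme or a ligase of the UBE2 to UBE4 series, or a ubiquitin-specific protease (USP). The interferon-inducible genes PSMB8, PSMB9, PSMB10, PSME1, PSME2 and USP18 were left out by that choice. A probe set also had to exceed log2 4 in at least 3 of the 12 arrays, and 113 probe sets of 80 genes did, out of 17638 probe sets and 6014 named genes tested. Of the 116 member probe sets before this filter, 3 were lost, and USP30, with values between 3.34 and 3.97, was the gene lost with them. The other 2 were extra probe sets of USP4 and UBA3. None of these 3 exceeded log2 4 on any array, while the weakest member kept, an extra UBE2C probe set, did so on 4 arrays.

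The ubiquitin-proteasome system marks proteins with chains of ubiquitin and destroys them. An E1 enzyme activates ubiquitin, an E2 carries it, an E3 ligase chooses the protein to be marked, and deubiquitinases such as the USPs take the mark off again. The 20S core of the proteasome is a barrel of alpha and beta subunits whose beta subunits cut the protein. The 19S cap, made of ATPase (PSMC) and non-ATPase (PSMD) subunits, binds the marked protein, removes the chain and unfolds it. Related E1 and E2 enzymes attach the ubiquitin-like proteins SUMO and NEDD8.

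VICs are the fibroblast-like cells of the heart valve leaflet. Affymetrix porcine arrays measured 4 groups of cells from adult pig aortic valves, each with 3 arrays that the labels call biological replicates. Untreated P2 cells were grown on tissue culture plastic through 2 passages and were then held in low serum without TGF-β1. Further P2 cells received porcine TGF-β1, a cytokine that drives fibroblasts towards a contractile state, at 5 ng/ml for 8 h or 24 h. All P2 cells were collected on day 3 of culture. P0 cells were freshly isolated by collagenase II digestion and never cultured, so that P2 and P0 differ in passage, plastic, medium and serum at once. Comparing untreated P2 with P0 asks what accompanies culture, and comparing treated with untreated P2 cells asks what follows TGF-β1.

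Values are log2 expression per probe set. Differences are log2 fold changes ± standard errors from limma, fitted to all 17638 tested probe sets on 12 arrays, and a probe set was called at a Benjamini-Hochberg adjusted p under 0.05. A gene is described by its member probe set with the highest mean. Between 16564 and 17247 probe sets exceeded log2 4 on each array. Among fibroblast and interstitial markers, 14 were measured and all stood above the level of the control probes, with mean log2 levels of 12.01 to 12.26 in untreated P2 arrays and 12.04 to 12.14 in P0 arrays. Single markers moved both ways in untreated P2 against P0 cells, with 4 called higher and 6 lower, among them ACTA2 at 2.89 ± 0.16 and TCF21 at -3.94 ± 0.32, and their part in the results was not tested. The samples are mixtures, so fewer cells of a type and less RNA per cell cannot be told apart.

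The proteasome genes were higher in cultured cells almost as a whole. Of the 36 proteasome genes measured, 35 rose in untreated P2 cells relative to P0 cells, none was called lower, and the median log2 fold change was 1.07. In probe sets this was 37 called higher, none lower and 5 not called of 42. Among all tested probe sets, 33.6% were called higher and 25.8% lower. The ubiquitin enzymes moved both ways. Of their 44 genes, 24 rose, 6 fell and 14 were not called, with a median log2 fold change of 0.32. Over all 113 member probe sets, 70 were called higher (61.9%) and 11 lower (9.73%), and the median was 0.56, against 0.07 over all tested probe sets. Changes past log2 1 were called upward in 33 member probe sets, where 14.4% of all tested were, and downward in 1, where 13.3% of all tested were.

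**Figure D1:**
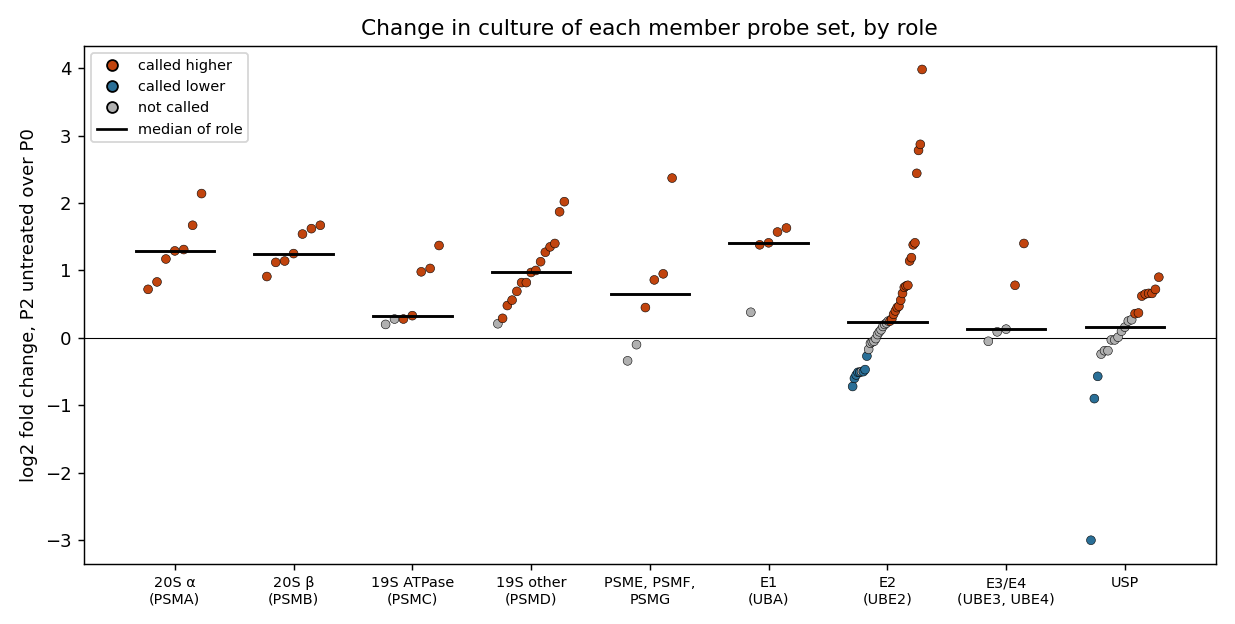
Log2 fold change of untreated P2 over P0 cells for each member probe set, in columns by role, with bars for role medians. Each group has 3 arrays. The 14 genes of the 20S core lie between 0.72 and 2.14, while the E2 and USP columns run on both sides of 0, from 3.98 for UBE2C to -3.00 for USP2.

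All 7 alpha and all 7 beta subunits of the 20S core rose in culture, with log2 fold changes between 0.72 and 2.14 and a median of 1.27. PSMA5, an alpha ring subunit, stood at 11.65, 11.67 and 11.57 in untreated P2 arrays and at 9.64, 9.23 and 9.60 in P0 arrays. The lowest P2 array was far above the highest P0 array. The difference was 2.14 ± 0.12, or 4.41-fold (limma adjusted p = 3.85e-08). PSMA4 and PSMA3 followed at 1.67 ± 0.13 and 1.31 ± 0.10. PSMB5, which carries the chymotrypsin-like site, gave 12.19, 12.22 and 12.12 in untreated P2 arrays and 10.54, 10.35 and 10.63 in P0 arrays. Its rise was 1.67 ± 0.10 (limma adjusted p = 6.43e-08), with no overlap between the groups. The subunits with the other catalytic sites rose as well, PSMB7 (trypsin-like) by 1.12 ± 0.11 and PSMB6 (caspase-like) by 0.91 ± 0.13. The non-catalytic PSMB2 and PSMB3 rose by 1.62 ± 0.11 and 1.54 ± 0.13.

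In the 19S cap, all 17 genes rose, with a median of 0.98. The 5 ATPases spanned 0.28 to 1.37. PSMC6 led them at 1.37 ± 0.14, PSMC2 reached 1.03 ± 0.11 and PSMC1 0.98 ± 0.11, while PSMC3 (0.28 ± 0.11, limma adjusted p = 0.0483) and PSMC5 (0.33 ± 0.11, limma adjusted p = 0.0264) lay near the threshold. The other 2 PSMC2 probe sets gave 0.20 and 0.28 and were not called. Among the 12 non-ATPase genes, PSMD5, an assembly chaperone of the cap, rose by 2.02 ± 0.14. PSMD14 is the metalloprotease that removes ubiquitin chains at the cap. It measured 11.72, 11.82 and 11.59 in untreated P2 arrays and 9.95, 9.42 and 10.16 in P0 arrays, a rise of 1.87 ± 0.17 (limma adjusted p = 1.45e-06). Its groups lay well apart although the P0 arrays scattered more than the P2 arrays. The scaffold subunit PSMD1 rose by 1.35 ± 0.14, the ubiquitin receptor PSMD4 by 0.97 ± 0.12 and PSMD11, a subunit of the cap's lid, by 0.69 ± 0.11. A second PSMD11 probe set rose by 0.82, and the weakest gave 0.21 and was not called (limma adjusted p = 0.0848).

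PSME3, the nuclear proteasome activator also called REG gamma, had the largest rise of the proteasome genes. It stood at 8.91, 8.98 and 8.75 in untreated P2 arrays and at 6.41, 6.23 and 6.90 in P0 arrays. The difference of 2.37 ± 0.17 is 5.16-fold (limma adjusted p = 2.69e-07), and every P2 array lay above every P0 array. The alternative activator PSME4 rose by only 0.45 ± 0.14 (limma adjusted p = 0.0174), and leaving out P0 replicate 1, P0 replicate 2 or untreated P2 replicate 1 moved that adjusted p to 0.0558, 0.0727 and 0.0752. The core assembly chaperone PSMG1 rose by 0.86 ± 0.10. PSMG3, another core assembly chaperone, was the proteasome gene not called, at -0.34 ± 0.17 (limma adjusted p = 0.1). PSMF1, known as an inhibitor of the 20S core in the test tube, gave 0.95 ± 0.17 on its stronger probe set and -0.10 on the other, which was not called.

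The proteasome probe sets were also even across the cultured cells. Over all 9 P2 arrays, treated and untreated, the range of a proteasome probe set had a median of 0.33 on the log2 scale. It was 0.53 for the ubiquitin enzymes and 0.67 for all tested probe sets. The part of expression level in these ranges was not tested. All 9 P2 arrays lay above all 3 P0 arrays in 38 of 42 proteasome probe sets (90.5%) and in 71 of the 113 members (62.8%). Among all tested probe sets 30.5% did so. The reverse, all P2 below all P0, held for 1 proteasome probe set and 10 members, and for 22.4% of all tested. As the plot of array medians shows, the median proteasome probe set stood 1.05, 0.99 and 1.01 above its P0 mean in untreated cells, 1.14, 1.03 and 1.02 at 8 h of TGF-β1, and 1.06, 1.04 and 1.07 at 24 h. The P0 arrays themselves lay at 0.05, -0.16 and 0.10.

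**Figure D2:**
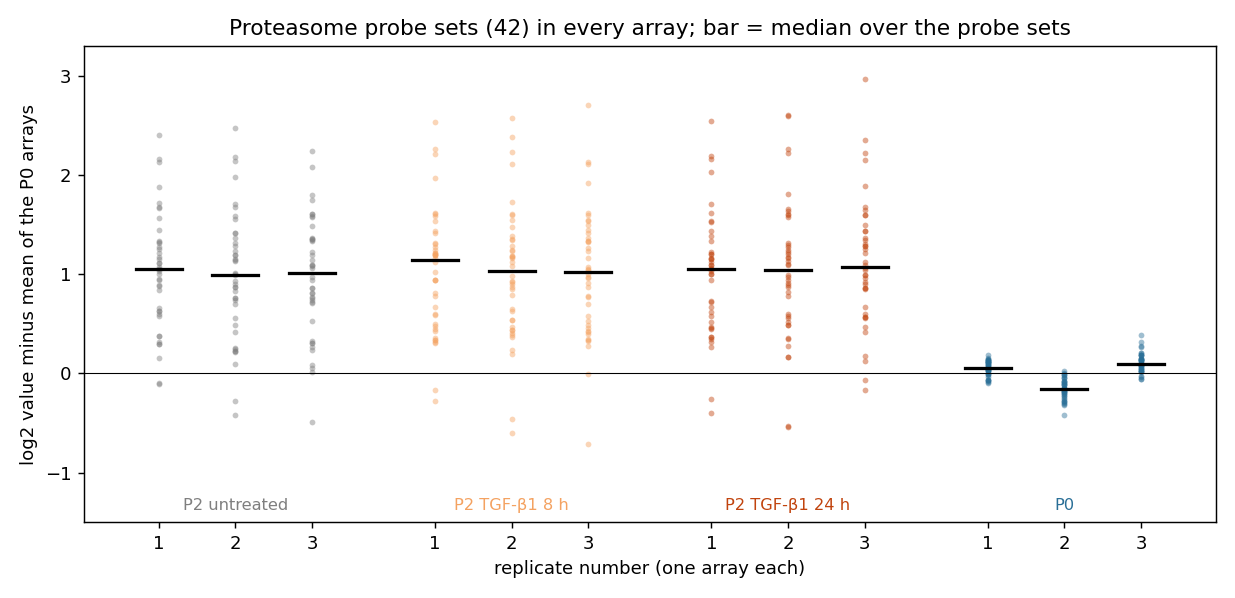
Log2 level of each of the 42 proteasome probe sets relative to its P0 mean, array by array, with the median of each array marked; replicates stand side by side within untreated P2, 8 h, 24 h and P0. The medians of the 9 P2 arrays lie between 0.99 and 1.14, and P0 replicate 2 is the lowest array at -0.16.

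P0 replicate 2 stood apart from the other P0 arrays in these genes. It was the lowest P0 array in 37 of 42 proteasome probe sets (88.1%) and in all 14 of the 20S core, against 33.1% of all tested probe sets. Its median gap to the mean of the other P0 arrays was -0.24 for the proteasome, -0.33 for the 20S core and 0.01 for all tested probe sets. Without it, 32 proteasome probe sets were called higher and none lower, with a median of 0.93. Markers of other cells moved with culture as well. All 11 macrophage and monocyte markers measured were called lower in untreated P2 cells, with mean log2 levels of 6.29 to 6.77 in untreated P2 arrays and of 9.22, 9.79 and 9.38 in P0 replicates 1, 2 and 3. None of them fell below the control level in either group. Of 15 markers of cycling cells, 14 were called higher, with means of 8.97 to 9.32 in untreated P2 arrays and 5.85 to 5.98 in P0 arrays. In P0 cells, 2 of these 15 lay below the control level. Mean levels of 14 endothelial markers were 6.98, 7.28 and 5.54 in untreated P2 arrays and 7.14 to 7.36 in P0 arrays. Of these 14, 3 were called lower and 0 higher, and 3 lay below the control level in untreated P2 cells and 1 in P0 cells. The part of these markers in the proteasome result was not tested. Leaving out the P2 arrays numbered 3, which had the lowest endothelial means in all P2 groups, left 33 proteasome probe sets higher and none lower. These arrays were picked after the data were seen, and leaving them out does not test the part of endothelial cells.

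Both measured E1 genes rose in culture, and both serve ubiquitin-like proteins. UBA2 is a subunit of the SUMO-activating enzyme. It stood at 10.31, 10.50 and 10.43 in untreated P2 arrays and at 8.95, 8.97 and 9.08 in P0 arrays, a rise of 1.41 ± 0.12 (limma adjusted p = 7.35e-07) between tight groups. UBA3, the catalytic subunit of the NEDD8-activating enzyme, rose by 1.57 ± 0.13. Its next 2 probe sets rose by 1.63 and 1.38, while the weakest, at 0.38, was not called. UBE2M, an E2 for NEDD8, rose by 1.41 ± 0.14, and UBE2F, the other NEDD8 E2, by 0.75 ± 0.15.

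Of the 24 E2 genes, 13 rose, 3 fell and 8 were not called. In probe sets, 19 of 40 were called higher and 8 lower, where 33.6% of all tested were higher and 25.8% lower. The gene rises include UBE2L3, whose weaker probe set was called lower, at -0.72. The largest rise was that of UBE2C, the E2 that works with the anaphase-promoting complex in mitosis. It measured 10.74, 10.47 and 10.90 in untreated P2 arrays and 7.01, 6.49 and 6.66 in P0 arrays. The difference of 3.98 ± 0.25 is 15.8-fold (limma adjusted p = 7.65e-08). Its other probe set lay between 3.40 and 4.25, near the control level, and was not called. UBE2T, the E2 of the Fanconi anaemia DNA repair pathway, measured 9.75, 9.37 and 9.94 in untreated P2 arrays and 7.07, 6.89 and 6.76 in P0 arrays. It rose by 2.78 ± 0.19, or 6.88-fold (limma adjusted p = 1.41e-07), and by 2.44 ± 0.20 on its other probe set. In UBE2C and UBE2T alike every P2 array was more than log2 1 above every P0 array. These 2 genes moved with the cycling-cell markers given above, and the part of cycling cells in their rise was not tested.

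After UBE2C, UBE2T and the NEDD8 enzyme UBE2M, the next E2 rises were those of UBE2K and UBE2V1. UBE2K, which builds ubiquitin chains, rose by 1.38 ± 0.12. UBE2V1 is an inactive E2 variant that pairs with UBE2N, and all 3 of its probe sets rose, by 1.19, 0.78 and 1.14. UBE2N itself gave 0.25 ± 0.10 (limma adjusted p = 0.037), a call that was lost without P0 replicate 1 or 2 (adjusted p = 0.0785 and 0.104), without any one of the untreated arrays (0.066, 0.121 and 0.053) and without any one of the 8 h arrays (0.052, 0.0524 and 0.0508).

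The E2 falls were small. UBE2H, an E2 of the CTLH ligase complex, gave 10.19, 10.33 and 10.18 in untreated P2 arrays and 10.69, 11.06 and 10.75 in P0 arrays. It fell by 0.60 on the log2 scale (SE 0.14, limma adjusted p = 0.00227) without overlap, and its other probe set fell as well. UBE2E2 fell by 0.55. Its relative UBE2E3 fell on all 3 of its probe sets, by 0.47, 0.50 and 0.51. The 3 measured probe sets of UBE2D2, a widely used E2, gave 0.05, 0.17 and 0.22, and none was called.

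**Figure D3:**
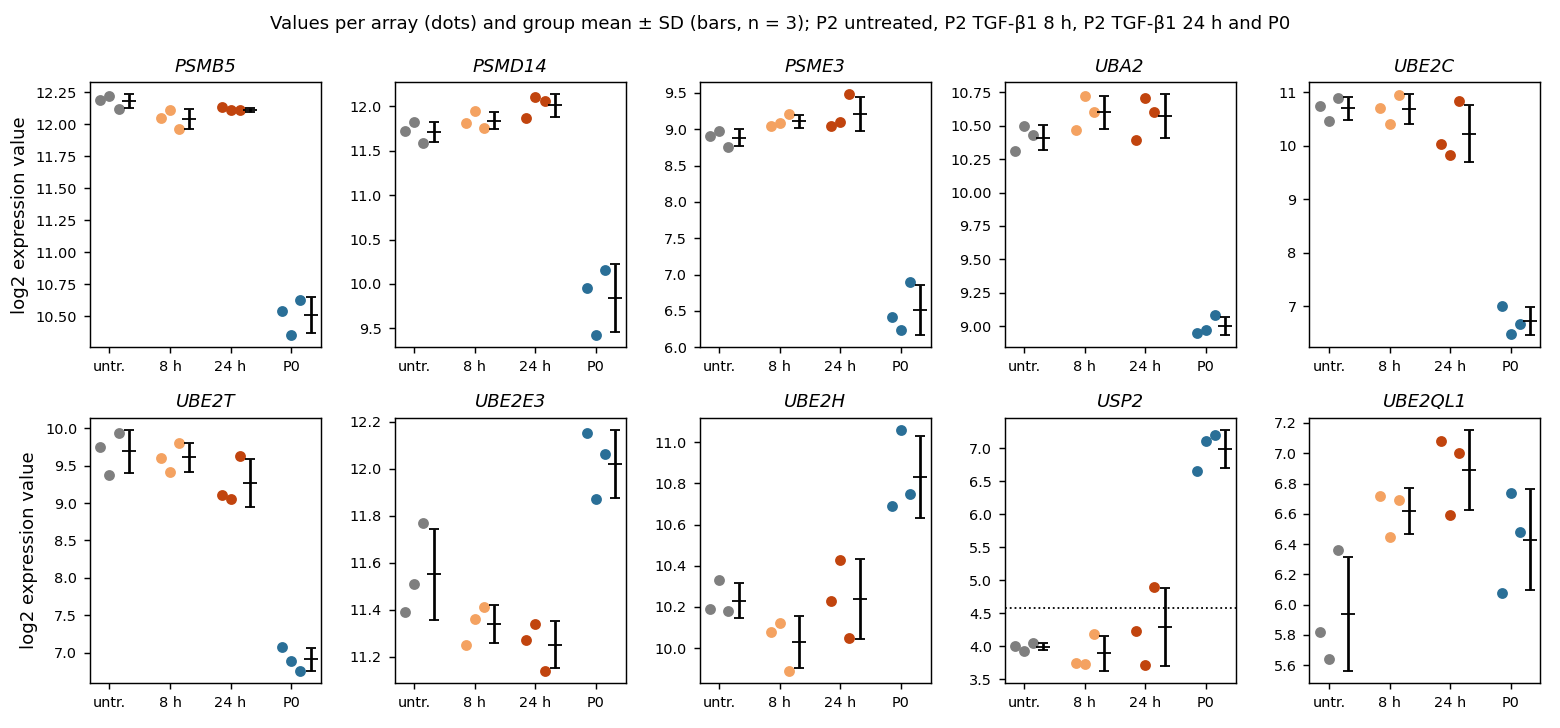
Log2 level on each array for 10 members (PSMB5, PSMD14, PSME3, UBA2, UBE2C, UBE2T, UBE2E3, UBE2H, USP2 and UBE2QL1), with points for arrays and a bar for the group mean of 3; the dotted line in the USP2 panel is the 95th percentile of control probes. Groups run from untreated P2 through 8 h and 24 h of TGF-β1 to P0. UBE2C sits between 9.83 and 10.96 in all P2 arrays and between 6.49 and 7.01 in P0 arrays, and USP2 lies between 3.72 and 4.90 in P2 arrays and between 6.66 and 7.20 in P0 arrays.

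Among the ligases, UBE3A, the E3 lost in Angelman syndrome, rose by 0.78 ± 0.11. UBE3D was at least 2.32-fold higher, since its P0 mean lay below 4.58, the 95th percentile of the control probes (limma adjusted p = 0.000381), but its other probe set gave -0.05 and was not called. UBE4B, which lengthens ubiquitin chains, gave 0.09 ± 0.14, with a 95% confidence interval that took in 0.

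Of the 14 USP genes, 7 rose, 3 fell and 4 were not called, and their rises were all under 1 on the log2 scale. In probe sets, 8 of 21 were called higher (38.1%) and 3 lower (14.3%), where 33.6% of all tested were higher and 25.8% lower. The USP share called higher was thus near that of all tested. USP5, which breaks down free ubiquitin chains, rose by 0.90 ± 0.12, USP3, a histone deubiquitinase, by 0.72 ± 0.13, USP24 by 0.65 ± 0.12 and USP9X by 0.62 ± 0.14. The weaker USP9X probe set, at 0.25, was not called. USP10 rose by 0.66 ± 0.13 on its stronger probe set, and gave -0.24 on one near the control level. The exception in size was USP2, a deubiquitinase whose expression follows the circadian clock in mouse tissues. It measured 4.0, 3.93 and 4.04 in untreated P2 arrays and 6.66, 7.11 and 7.20 in P0 arrays. P2 values were at the control level and P0 values clearly above it, so USP2 was at least 5.3-fold lower in P2 cells (limma adjusted p = 9.29e-07). It was also the member fall past log2 1. USP11, which has been described as acting on the TGF-β receptor, fell by 0.57 (SE 0.12, limma adjusted p = 0.00165). USP36, a nucleolar deubiquitinase, was at least 1.39-fold lower (limma adjusted p = 0.0259), with a value of 3.28 in untreated P2 replicate 3 that stood below the 4.64 and 4.58 of the other untreated arrays. Its call was lost without that array (-0.46, limma adjusted p = 0.0789), without P0 replicate 2 (adjusted p = 0.0885) and without P0 replicate 3 (adjusted p = 0.0875). USP4 gave 0.27 (adjusted p = 0.0841 from limma) and USP7, a deubiquitinase of MDM2, gave -0.03.

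Probe sets of one gene did not always give the same call. Of 23 genes with several member probe sets, 6 had all of them called in one direction, 12 had some called and some not, and 4 had none called. UBE2L3, an E2 used by many ligases, was called in both directions, at 0.35 ± 0.12 on the stronger and -0.72 ± 0.19 on the weaker probe set. A further case is UBE2W, an E2 that marks the N-terminus of proteins. Its stronger probe set gave 0.09 and was not called, while the other stood at 6.53, 6.67 and 7.10 in untreated P2 arrays and at 3.68, 3.98 and 4.04 in P0 arrays, at least 4.54-fold higher. Which transcripts these probe sets read was not tested. Directions for UBE2L3 and UBE2W are therefore uncertain.

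The rest of the pathway was read from a list of ubiquitin-system genes outside the members, of which 54 were measured. In untreated P2 cells, 36 of them rose and 5 fell relative to P0, with a median of 0.67, where 33.6% of all tested probe sets were called higher and 25.8% lower. Each of the 54 genes was read on its strongest probe set, while these shares take in weaker probe sets too, so the units differ. The 54 include 6 interferon-inducible genes, 5 of them left out of the members by symbol and ISG15, of which 5 rose with a list median of 1.44. Of 4 measured proteasome partners, 3 rose. SEM1, the smallest cap subunit, rose by 0.96 ± 0.14, the cap-associated TXNL1 by 0.71 ± 0.10 and PAAF1 by 0.78 ± 0.18, while AKIRIN2, a factor for nuclear import of proteasomes, gave -0.42 ± 0.18 and was not called (limma adjusted p = 0.0579). VCP, the ATPase that extracts marked proteins, rose by 1.19 ± 0.12. On the NEDD8 side, NAE1, the partner of UBA3 in the NEDD8 E1, rose by 1.57 ± 0.14 and NEDD8 itself by 0.82 ± 0.12. In the anaphase-promoting complex group, which uses UBE2C, all 5 measured genes rose, led by the coactivator CDC20 at 4.26 ± 0.29 and the subunit CDC23 at 2.25 ± 0.20. Of 8 deubiquitinases outside the USP family, 4 rose and 2 fell. UCHL1, known as an abundant neuronal deubiquitinase, rose by 3.22 ± 0.19 (limma adjusted p = 5.2e-08). Its levels were 13.14, 13.12 and 12.85 in untreated P2 arrays and 9.42, 10.30 and 9.72 in P0 arrays. CYLD, which removes chains in NF-κB signalling, fell by 0.91. The polyubiquitin gene UBB fell by 0.51, with 15.44, 15.40 and 15.37 in untreated P2 arrays and 15.92, 15.92 and 15.91 in P0 arrays. These values lie close to the highest in the table, 15.95, so the size of that difference is uncertain. RPS27A, the other ubiquitin precursor gene measured, gave 0.00 and was not called. Its mean of 15.33 in both groups also lies close to that highest value, so the absence of a difference is uncertain too.

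TGF-β1 left the members largely uncalled. At 8 h no member probe set was called in either direction in limma, where 2.53% of all tested probe sets were called higher and 2.53% lower. At an unadjusted p under 0.05 there were 13 members (11.5%), against 17.4% of all tested. The median log2 fold change was 0.01, and members ran from -0.43 to 0.68. At 24 h, 1 member was called higher and none lower, where 4.27% of all tested were higher and 4.22% lower, and 12 members (10.6%) had an unadjusted p under 0.05, against 22.7% of all tested. Between 24 h and 8 h no member was called, where 0.142% of all tested were higher and 0.0907% lower, and 4 members had an unadjusted p under 0.05 (3.54%, against 9.27% of all tested). Both TGF-β1 comparisons use the same untreated arrays.

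**Figure D4:**
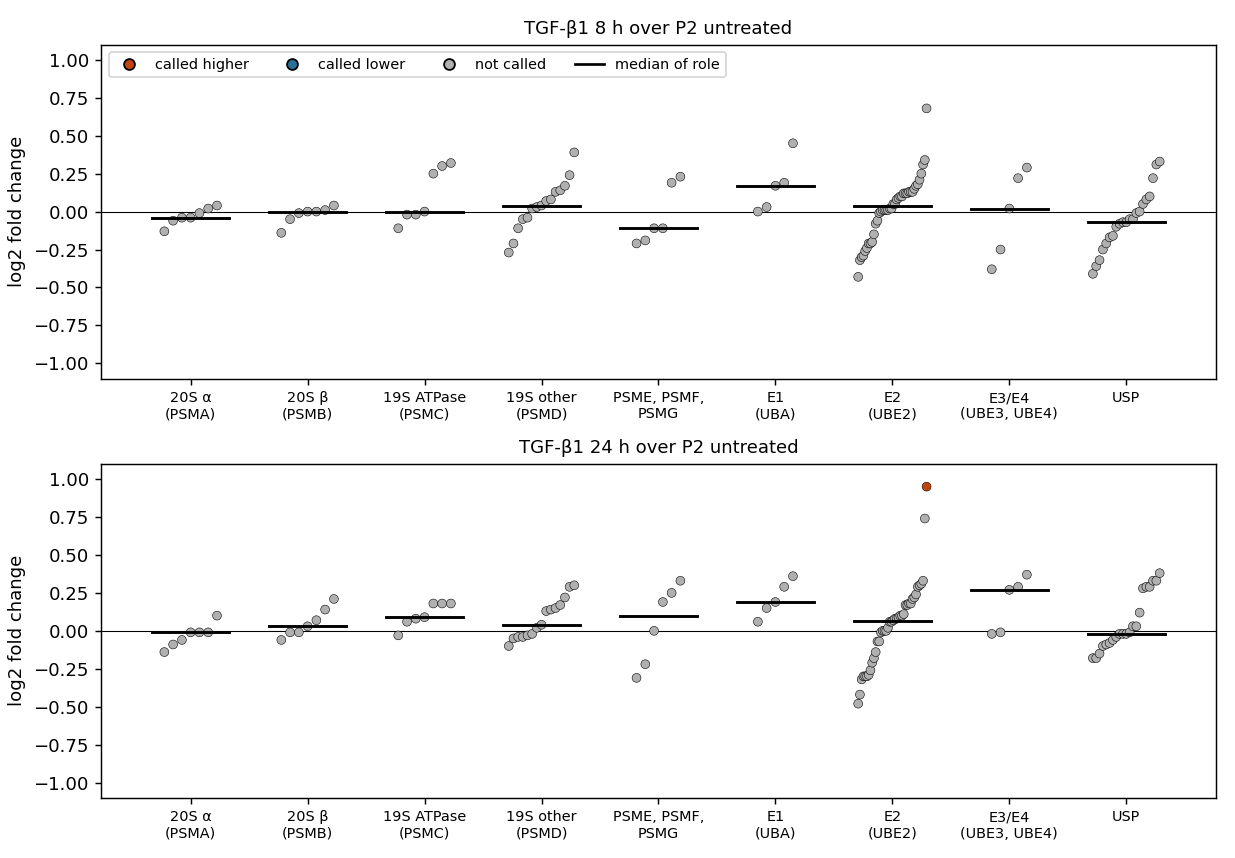
Log2 fold change of TGF-β1 over untreated P2 cells for each member probe set by role, at 8 h and at 24 h. Bars mark role medians, and both panels have the same scale. Apart from UBE2QL1 at 0.68 and 0.95, and a weaker UBE2W probe set at 0.74 at 24 h, values lie between -0.48 and 0.45. The 20S core lies between -0.14 and 0.21.

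The proteasome probe sets lay between -0.27 and 0.39 at 8 h and between -0.31 and 0.33 at 24 h, and at 24 h none had an unadjusted p under 0.05. Without pairing the P2 arrays by replicate number, the median half-width of the 95% confidence interval at 24 h was 0.26 for proteasome probe sets. In that fit, changes smaller than this would mostly not have been detectable. The interval is not adjusted for the number of probe sets tested, so somewhat larger changes could also go uncalled. The intervals given below come from the same fit. PSMD10, at 0.39 at 8 h, had a limma adjusted p of 0.0613. PSMB5 gave 12.05, 12.11 and 11.96 at 8 h, 12.13, 12.11 and 12.11 at 24 h, and 12.19, 12.22 and 12.12 untreated. Its difference at 24 h was -0.06, with a 95% confidence interval of -0.28 to 0.16, and for PSMA5 it was 0.10, from -0.16 to 0.37. For PSMB7 the interval was -0.21 to 0.27 and for PSMB6 -0.14 to 0.41. PSMD14 had a wider interval of -0.07 to 0.66 around 0.30, and PSME3 one of -0.04 to 0.71 around 0.33.

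The interferon-inducible counterparts of these subunits, which the choice of members left out, gave other values. PSMB10, which takes the place of PSMB7, stood at 8.22, 8.38 and 8.18 at 24 h and at 9.58, 9.32 and 9.60 untreated, a fall of 1.24 on the log2 scale (SE 0.11, limma adjusted p = 0.000135). PSMB8, which takes the place of PSMB5, fell by 1.07 (limma adjusted p = 0.0493), and the activator subunits PSME1 and PSME2 fell by 0.84 and 1.04. The difference between those genes and the members was not tested.

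UBE2QL1, an E2-like gene, was the member called higher at 24 h. Its levels were 5.82, 5.64 and 6.36 untreated, 6.72, 6.45 and 6.69 at 8 h and 7.08, 6.59 and 7.0 at 24 h, with 6.08, 6.74 and 6.48 in P0 arrays. Both treated groups lay above all untreated arrays, and P0 values overlapped the treated ones. The difference at 24 h was 0.95 ± 0.22, with a 95% confidence interval of 0.48 to 1.42 (limma adjusted p = 0.0188), and at 8 h it was 0.68 ± 0.22 (limma adjusted p = 0.103). Leaving out untreated replicate 1 or 2, or 24 h replicate 1 or 3, moved the adjusted p at 24 h to 0.0702, 0.0606, 0.0731 and 0.0541.

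The replicate numbers pair the P2 arrays, and with them as a block on the 9 P2 arrays more members were called. At 8 h, UBE2QL1 (0.68, limma adjusted p = 0.0173), PSMD10 (0.39, adjusted p = 0.0314) and a second PSMC2 probe set (0.32, adjusted p = 0.0432) were then higher. UBE2D4 (-0.43, adjusted p = 0.0157) and UBE4B (-0.38, adjusted p = 0.0347) were lower. PSMD10, an assembly chaperone of the cap also called gankyrin, measured 10.28, 10.05 and 10.20 at 8 h and 9.85, 9.84 and 9.68 untreated, without overlap. The blocked fit called 5.7% of all tested probe sets higher and 6.77% lower at 8 h.

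At 24 h the blocked fit called 4 members higher and 4 lower, where 9.77% of all tested were higher and 10.2% lower. The higher ones were UBE2QL1 and weaker probe sets of UBE2W (0.74, limma adjusted p = 0.00188), UBE3D (0.37, adjusted p = 0.022) and UBE2V1 (0.31, adjusted p = 0.0356). The lower ones were UBE2T (-0.42, adjusted p = 0.0235), UBE2H (-0.29 on its weaker probe set, adjusted p = 0.0384), UBE2D4 (-0.30, adjusted p = 0.039) and UBE2C (-0.48, adjusted p = 0.0452). The stronger probe sets of UBE2W, UBE3D and UBE2V1 gave 0.02, -0.02 and 0.09 at 24 h, and that of UBE2H gave 0.0. These stronger probe sets were not called in either fit, so a change of the 4 genes is uncertain. UBE2C measured 10.03, 9.83 and 10.83 at 24 h and 10.74, 10.47 and 10.90 untreated, so each array was below its own number but the groups overlapped. Without the block, its adjusted p was 0.289 and that of UBE2T 0.206. The cycling-cell markers had means of 8.32, 8.39 and 8.95 at 24 h and 9.29, 8.97 and 9.32 untreated, and 3 of 15 were called lower. Their part in the UBE2C and UBE2T values was not tested. Between 24 h and 8 h the blocked fit called no member, against 1.12% of all tested higher and 1.32% lower.

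Of the other 54 ubiquitin-system genes, 1 rose and 2 fell at 8 h, where 2.53% of all tested probe sets were called in each direction. At 24 h 1 rose and 6 fell, where 4.27% of all tested were higher and 4.22% lower. Here too the 54 are genes and the shares are of probe sets. The interferon-inducible genes that the choice of members left out made up 1 of the 2 falls at 8 h and 4 of the 6 at 24 h. ITCH, an E3 ligase, stood at 9.60, 9.54 and 9.76 at 8 h and 8.95, 8.99 and 8.98 untreated, a rise of 0.66 ± 0.10 (limma adjusted p = 0.00541). FBXO32, the muscle atrophy F-box ligase subunit, fell by 1.29 at 8 h and by 1.06 at 24 h. WWP1, a relative of ITCH that acts on TGF-β signalling, rose by 0.43 ± 0.11 at 24 h (limma adjusted p = 0.0365). ATG7, the E1-like enzyme of autophagy, fell by 1.44 at 24 h (limma adjusted p = 0.00137), and its untreated level had itself been 2.03 ± 0.20 above P0.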

How the data were processed

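Expression was measured on 12 Affymetrix porcine arrays. The deposited table holds log2 values per probe set, made with GCRMA per the submitters' processing notes, with no version. Scan dates and batches were not known from the sources used, and the number of arrays limits the precision. Values were used as deposited, since array medians lay within 0.0734. Of 23999 probe sets, 64 control probe sets were left out. A probe set was tested if over log2 4 in at least 3 arrays. Symbols came from the platform annotation, which can be old: 10069 probe sets had 1 symbol, 198 several and 13732 none, and 77 of the 80 member genes matched a RefSeq gene by ID with the same symbol. Probe sets with several symbols, among them 3 shared by USP53 and LRFN5, were not members. Levels are not compared between probe sets.

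The 4 group means were fitted with limma 3.58.1 in R 4.3.3 (8 residual and 3.745 prior degrees of freedom). Tests were two-sided, Benjamini-Hochberg adjusted over 17638 probe sets in each of 4 comparisons. The procedure was also run on simulated data whose noise was independent between arrays, unlike that of the P2 arrays, which pair by number. Where a group mean lay below 4.58, the 95th percentile of the control probes, a fold is a lower bound counted from that level. Genes named were, per role and comparison, up to 3 called rises and 3 called falls with the largest changes (5 each for UBE2 and USP genes), the gene with the smallest p where none was called, and a panel of 35 genes, of which 22 were measured. PSMC3, PSMC5, PSMG3, UBE2D2, UBE2F, UBE2L3, UBE2W and the genes outside the members were singled out after their values were seen. Members, lists, panel and tests were chosen with earlier results of these data known.

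Deviations from group means of same-numbered P2 arrays correlated at 0.348 to 0.679 in all 9 pairs, and those of differently numbered ones at 0.0796 at most, so the numbers pair the P2 arrays. P0 arrays correlated with their own number at -0.0916 to 0.0158 and were not paired. Alternatives were no filter, a filter at log2 6, quantile normalisation, a trended robust prior, replicate blocks, subsets of groups, and leaving out each array. Leaving out the P2 arrays numbered 3 was added after seeing the data.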

Additional observations from a re-analysis of the deposited data

How the results depend on the processing

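The counts of members called in untreated P2 against P0 cells stayed within 1.5 times in every alternative: 65 to 70 higher and 9 to 13 lower over the changes of filter, normalisation, prior, block and groups, and 61 to 70 higher and 9 to 12 lower when 1 array was left out. Leaving out the P2 arrays numbered 3 gave 64 higher and 10 lower. Of the proteasome probe sets, quantile normalisation called 34 higher and 1 lower, and no other alternative called any lower. Counts under TGF-β1 were small and moved. At 8 h, 1 member was called higher with the filter at log2 6, with the trended robust prior and with the replicate block on all arrays, and 3 with the replicate block on the P2 arrays. Lower calls at 8 h were 1 with the P2 arrays only and no block, 2 with the replicate block on the P2 arrays, and 0 to 1 when 1 array was left out, with the 1 coming without P0 replicate 3. At 24 h the replicate block gave 3 higher on all arrays, and 4 higher and 4 lower on the P2 arrays, and leaving out 1 array gave 0 to 1 in each direction. Without 24 h replicate 3 the lower call was UBE2C, at -0.78 (limma adjusted p = 0.0415). The replicate block left 70 higher and 11 lower in untreated P2 against P0 cells. A weaker probe set turned the sign of a called rise for PSMF1 (-0.10), UBE3D (-0.05), USP10 (-0.24), UBE2L3 (-0.72), UBE2O (-0.06) and USP16 (-0.19). Of these, the UBE2L3 probe set was itself called lower. The cause of these shifts was not tested. The 3 arrays per group limit what can be seen. In the fit without a replicate block, the median confidence half-width at 24 h was 0.35 on the log2 scale over all tested probe sets.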
